A study of Homo sapiens with 12 samples.

Results

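Single HEK293T cells were profiled by LAST-seq in 2 libraries of 10 cells each, and these 20 cells are described here, cell by cell and library against library. The series holds 12 samples of HEK293T and eHAP1 cells, lysate and total RNA, and the cells described here were all the cells in the 2 UMI tables whose labels name LAST-seq on HEK293T cells with either the A60 or the ERCC spike-in mix. They are called the A60 library and the ERCC library below. HEK293T is an embryonic kidney cell line that carries the SV40 large T antigen. The study did not authenticate the line, and the labels give no treatment. Cells were dissociated with trypsin, stained with a dye to leave out dead cells and flow-sorted into wells. The spike-in mix is the difference that the labels give, and each mix was used in 1 pooled library, so that mix and library cannot be told apart. Other libraries of the series served as yardsticks, namely LAST-seq of 15-pg total RNA and of lysate, and 2 CEL-seq2 libraries of single HEK293T cells. Every well of the 15-pg RNA holds the same input. The lysate wells are taken to, although their title does not say so. The titles name the A60 mix for lysate, both mixes for the first CEL-seq2 library and the ERCC mix for the second. The title of the 15-pg RNA names no mix, and 83.6% of its spike-in UMIs lay on species outside the A60 mix.

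LAST-seq joins a T7 promoter to the end of the poly-A tail and copies the RNA linearly by in vitro transcription, with no reverse transcription before the amplification. The primer of each well carries a random stretch, the unique molecular identifier or UMI, that marks a molecule, and a fixed stretch, the cellular barcode, that marks the well. Cells of a growing culture are spread over the cell cycle, in which S phase genes serve DNA replication and G2 and mitosis genes build the spindle and divide the chromosomes. Mitochondria carry a small genome of their own, whose transcripts are among the most abundant of a cell, and copies of that genome lie scattered as pseudogenes on the chromosomes.

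The cells of the 2 libraries were marked with the same 10 barcodes, and the barcodes are shown because the cell numbers used below are barcode numbers and because several genes peaked at the same barcode in both libraries. In each line the lower case n stand for the 8 random bases of the UMI, and the capitals mark the 6 bases of the cellular barcode, 5′ to 3′.
cell 1: nnnnnnnnGTATCC
cell 2: nnnnnnnnCATTGG
cell 3: nnnnnnnnGGAGAA
cell 4: nnnnnnnnCGAAGA
cell 5: nnnnnnnnTCCAGA
cell 6: nnnnnnnnATCCAG
cell 7: nnnnnnnnTTGCTG
cell 8: nnnnnnnnACTGTC
cell 9: nnnnnnnnTCGACT
cell 10: nnnnnnnnCAGTCT
Any 2 of these barcodes differ in 3 to 6 of their bases. Cell 1 of the A60 library and cell 1 of the ERCC library are different cells that share a barcode sequence, not a pair.

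Cells held 82596 to 190557 UMIs on genes in the A60 library, with a median of 142024, and 105000 to 186677 in the ERCC library, with a median of 155214. Between 8792 and 11344 genes were detected per cell in the A60 library and between 9797 and 11384 in the ERCC library. Spike-ins took 3.26% to 5.92% and 2.74% to 5.79% of UMIs. The label HEK293T was set beside lists of marker genes, with no test of how particular each gene is to the line. Of 15 markers of the line 13 were detected and 9 passed the filter on low counts, among them VIM, NCL, IGF2BP1 and LIN28B, while CDH2 had 3 and 8 UMIs over the whole library and EYA1 1 and 2. An example is VIM, the intermediate filament vimentin, with 18 to 67 UMIs per A60 cell and 27 to 79 per ERCC cell. The 14 blood cell markers together took 9 and 11 UMIs over all cells of a library, and the 7 endothelial markers took 5 and 1. The 9 fibroblast markers took 16 and 17 UMIs and the 8 epithelial markers 17 and 18, with 1 gene of each list past the filter. Of the epithelial markers CDH1 had 9 and 15 UMIs, more than CDH2 or EYA1.

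Cells resembled the cells of their own library more than those of the other. With every cell thinned to 82596 UMIs, the correlation between the profiles of 2 cells over 9702 genes ran from 0.790 to 0.805 within the A60 library, from 0.786 to 0.805 within the ERCC library and from 0.739 to 0.763 between them, so that no pair of cells from different libraries reached the lowest value within a library. The median between libraries was 0.756 for cells with the same barcode and 0.753 for the others. These are correlations across genes, which are not independent replicates.

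The genes behind this difference were sought by comparing mean counts over the 10 cells of each library in CPM, the UMIs of a gene scaled to the total of its cell. With 1 library per mix there is no test of the mix: a gene was called higher or lower when the ratio of the means, each raised by 1 CPM, was at least 2-fold, and exact 95% intervals on the summed UMIs cover counting error only. Of 9702 genes averaging 1 UMI per cell or more, 616 were higher in the A60 library (6.35%) and 1032 were lower (10.6%). The median log2 ratio of all genes was −0.10, and TMM scaling moved it to 0.01 and the counts to 723 and 818. The share of genes past 2-fold fell with the level, from 35.0% of the genes with a mean of 1 to 2 UMIs to 1.30% of the 385 genes with at least 50. Long noncoding RNAs passed more often (35.6% of 303) than protein-coding genes (17% of 8554), and pseudogenes less often (9.26% of 767), with no test of that order. For 567 of the 616 higher genes and 939 of the 1032 lower genes the interval of the summed ratio excluded equality. Every A60 cell lay above every ERCC cell, in CPM, for 54 genes (0.557%) and below for 83 genes (0.855%).

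**Figure D1:**
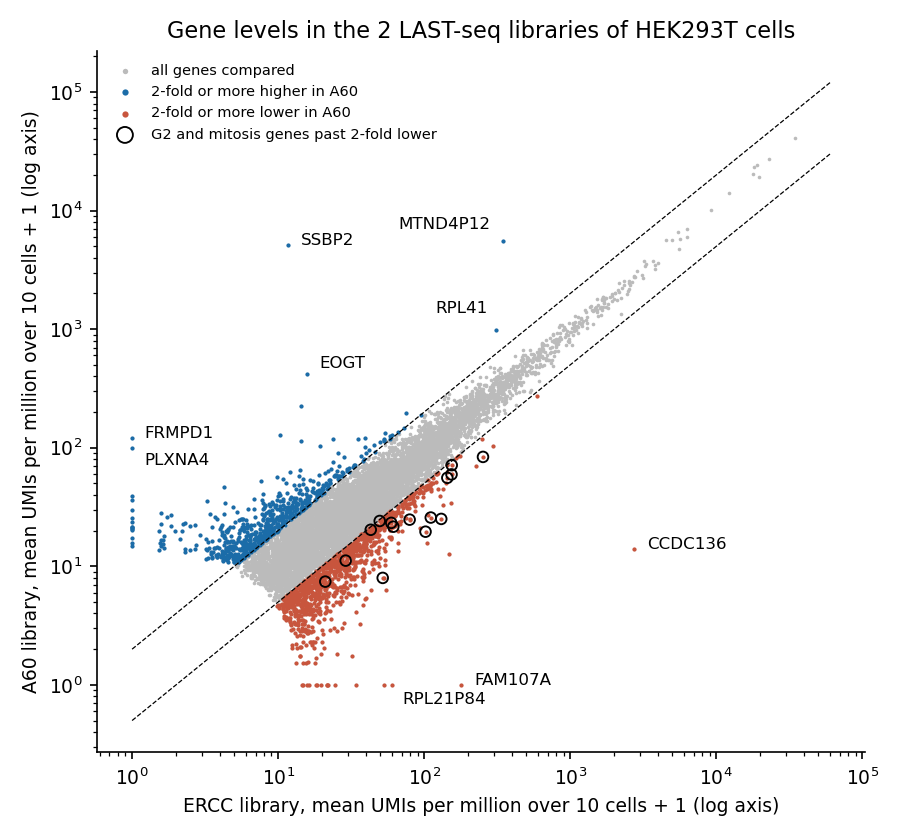
Each point is 1 of 9702 genes, with its mean CPM (UMIs scaled to the total of the cell) plus 1 over 10 cells of the ERCC library on the horizontal log axis and of the A60 library on the vertical log axis, dashed lines at 2-fold and circles around the 15 lower G2 and mitosis genes. SSBP2 and CCDC136 lie far from the diagonal on opposite sides, and the abundant genes at the upper right stay between the lines.

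The gene with the largest ratio was SSBP2, which encodes a single-stranded DNA binding protein that acts with LDB1 in transcription (GRCh38 chr5:81412804-81751797, minus strand). It had 491 UMIs in the lowest A60 cell, a median of 617 and 859 in the highest, while ERCC cells held 0 to 6 with a median of 1.5. The libraries did not overlap, and the summed CPM was 403-fold higher in the A60 library (252 to 693). SSBP2 was just as low in the other libraries, with medians of 1 UMI per well in 15-pg RNA, 2 in lysate and 1.5 in both CEL-seq2 libraries, so that the A60 library stood alone among these 6.

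CCDC136, a coiled-coil protein gene, was the counterpart on the other side (chr7:128790757-128822132, plus strand). ERCC cells held 307, 384 and 526 UMIs as the lowest, median and highest value, and A60 cells 0, 1.5 and 4. The libraries did not overlap, and the ERCC library was 187-fold higher (121 to 306). Here the ERCC library stood alone, as the medians elsewhere were between 0 and 4 UMIs per well.

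EOGT, which encodes the transferase that puts O-GlcNAc on EGF domains in the endoplasmic reticulum, had 45 to 65 UMIs in every A60 cell and 0 to 5 in ERCC cells, a summed ratio of 25.6 (16.9 to 40.7). MTND4P12, a pseudogene copy of the mitochondrial gene MT-ND4 on chromosome 5, had 600 to 892 UMIs per A60 cell and 29 to 72 per ERCC cell, a summed ratio of 15.1 (13.9 to 16.6). It was low in 15-pg RNA, with a median of 33.5, and high in lysate and both CEL-seq2 libraries, with medians of 439, 852 and 660. Its reads can be shared with MT-ND4, so the count of either is uncertain. RPL41, which encodes the smallest ribosomal protein, had 67 to 201 UMIs in A60 cells and 32 to 54 in ERCC cells, a summed ratio of 3.23 (2.91 to 3.59). SSBP2, MTND4P12 and RPL41 were the 3 higher genes among the 385 with at least 50 UMIs per cell. The 2 lower ones were CCDC136 and BUB3, a spindle checkpoint gene, with 404 UMIs over the A60 library and 899 over the ERCC library.

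Several genes were detected in 1 library only, 15 in each direction among the 9702. FRMPD1, a FERM and PDZ domain protein, had 11 to 25 UMIs in every A60 cell and none in the ERCC library, at least 57.9-fold higher against a floor of 3 UMIs over the library. PLXNA4, a plexin receptor of semaphorins, had 6 to 20 UMIs in A60 cells and none in ERCC cells, at least 45.2-fold higher. CHRND, the delta subunit of the muscle acetylcholine receptor, had 0 to 7, and NKX3-2, a homeobox factor of cartilage, had 1 to 5, both with none in the ERCC library. The noncoding genes LINC01419, ENSG00000281904, EIF5-DT and ENSG00000262877 followed the same pattern with medians of 3 or 4 UMIs per A60 cell. FRMPD1 and CHRND were also seen in 15-pg RNA, with medians of 6 and 2.5 UMIs per well, and not in lysate.

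In the other direction, FAM107A, an actin-associated protein gene, had 17 to 39 UMIs in every ERCC cell and none in any A60 cell, at least 83.4-fold lower in the A60 library. Its median was 48 UMIs per well in 15-pg RNA, 0 in lysate, 1 in the first CEL-seq2 library and 15.5 in the second. CDKN1A, the p53-induced inhibitor of cyclin-dependent kinases known as p21, had 0 to 6 UMIs per ERCC cell and none in the A60 library, at least 9.44-fold lower, and medians of 11 and 3 in 15-pg RNA and lysate. SYP, the synaptic vesicle protein synaptophysin, had 1 to 6 UMIs in ERCC cells. GPHA2, a glycoprotein hormone subunit, had 0 to 8 and CBLN3, a cerebellin, 0 to 6, and all of these had none in A60 cells. RPL21P84, a pseudogene of the ribosomal protein gene RPL21, had 5 to 12 UMIs in ERCC cells, none in A60 cells and medians of 54 and 53 in CEL-seq2. It shares sequence with its parent gene and with other copies, so its count is uncertain. The noncoding ENSG00000271797 and ENSG00000237126 and the pseudogene ENSG00000260212 had medians of 7.5, 3 and 4.5 UMIs per ERCC cell.

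G2 and mitosis genes included many that were lower in the A60 library. Of 61 listed genes 60 passed the filter, of which 15 were lower (25%, beside 10.6% of all genes), 1 was higher and 48 had a negative log2 ratio, with a median of −0.52 beside −0.10. With TMM scaling 12 were lower and the median was −0.42. Among genes averaging 5 UMIs per cell or more, where fewer genes pass by counting error, 11 of 47 members were lower (23.4%) beside 4% of 4274 genes. Members together took 0.375% to 0.573% of the UMIs of an A60 cell, with a median of 0.446%, and 0.551% to 0.845% of an ERCC cell, with a median of 0.583%. The ranges overlapped through cell 9 of the A60 library alone, at 0.573%. In both sets of uniform wells the share was below the ERCC cells, at 0.385% to 0.435% in 15-pg RNA and 0.362% to 0.430% in lysate.

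CDK1, the kinase that drives entry into mitosis, had 22.7 to 178 CPM in A60 cells, with a median of 75.6, and 186 to 332 in ERCC cells, with a median of 262. The libraries did not overlap, and the ERCC library was 2.98-fold higher (2.42 to 3.68). AURKA, a kinase of the spindle poles, ran from 0 to 73.7 and from 76.2 to 198 CPM, again without overlap, and was 5.15-fold higher in the ERCC library (3.62 to 7.53). HJURP, the chaperone that loads the centromeric histone CENP-A, and CKAP2L, a spindle protein, also did not overlap, with the ERCC library 4.95-fold (3.31 to 7.64) and 7.17-fold (3.69 to 15.6) higher. TOP2A, the topoisomerase that untangles chromosomes, had 2 to 20 UMIs in A60 cells and 11 to 44 in ERCC cells and overlapped, as did UBE2C, the ubiquitin-conjugating enzyme of the anaphase-promoting complex, with 0 to 6 and 3 to 28. The other lower members were SMC4, AURKB, GTSE1, KIF20B, TTK, KIF2C, CDCA2, CDCA8 and NEK2. MKI67, the marker of cycling cells, did not pass, with 7 to 26 UMIs in A60 cells and 10 to 42 in ERCC cells. NUSAP1, a spindle protein, was the only higher member, at 1 to 7 and 0 to 5 UMIs.

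S phase genes lay nearer to the median of all genes, and on the other side of it from the G2 and mitosis genes. Of 42 members that passed, 4 were higher and none lower, beside 6.35% and 10.6% of all genes. The median log2 ratio was 0.09, beside −0.10 for all genes. CDCA7, a chromatin protein that peaks in late G1 and S phase, had 9 to 25 UMIs in A60 cells and 2 to 8 in ERCC cells without overlap, a summed ratio of 3.54 (2.57 to 4.96). UHRF1 and CASP8AP2 were also higher, UHRF1 with an interval of 0.985 to 4.84 that includes equality. PCNA, the sliding clamp of DNA polymerase, stayed at 31 to 85 and 37 to 66 UMIs. Shares of the S phase list were 0.435% to 0.564% and 0.376% to 0.548%. Of 20 genes of G1 cyclins and the RB-E2F pathway none was higher and 2, CDKN1A and RBL1, were lower, near the 10.6% of all genes. The histone genes H4C15 and H4C3 were the 2 replication-dependent histones that passed and both were lower, but histone H4 genes encode the same protein with similar sequences, so their counts are uncertain.

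Stress lists are read against the 6.35% of all genes that were higher and the 10.6% that were lower. None of the 32 heat shock and chaperone genes passed 2-fold in either direction, with a median log2 ratio of 0.00, and HSPA8, the constitutive HSP70, had 15 to 76 and 24 to 120 UMIs per cell. None of the 33 ATF4 targets passed. Among 24 genes of the unfolded protein response SYVN1 was higher and DNAJC3 and EIF2AK3 were lower, and among 17 hypoxia genes BNIP3L and P4HA1 were higher. The p53 list had 1 higher and 4 lower members of 23. DDB2, a damage recognition protein of nucleotide excision repair, had 2 to 10 UMIs in A60 cells and 0 to 2 in ERCC cells, a summed ratio of 7.02 (3.32 to 17.1), and CDKN1A, FAS, PPM1D and ZMAT3 were lower. So members of the same list lay past 2-fold on both sides.

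The immediate early list, genes that respond to a stimulus within minutes, had 16 of its 35 members past the filter on low counts, of which KLF6 and CCN1 were higher and MCL1 and FOSL2 lower. MCL1, a survival factor of the BCL2 family, ran from 0 to 64.5 CPM in A60 cells and from 66.8 to 238 in ERCC cells, without overlap. Among 17 NRF2 targets, HMOX1, the haem oxygenase, was higher with 0 to 16 and 0 to 5 UMIs. GCLC, the catalytic subunit of the enzyme that limits glutathione synthesis, had 2 to 9 UMIs in A60 cells and 10 to 75 in ERCC cells, and the value of 75 came from cell 1 while the other ERCC cells had 10 to 26. None of 14 glycolysis genes passed, and of 19 genes of cholesterol synthesis and uptake NSDHL was lower.

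Mitochondrially encoded mRNAs took more of the UMIs in the A60 library. Their share was 14.3% to 17.4% per A60 cell, with a median of 14.8%, and 12.2% to 14.5% per ERCC cell, with a median of 12.8%, and the ranges overlapped. None of the 13 genes passed 2-fold, 12 had a positive log2 ratio, and the median was 0.20, or 0.31 with TMM scaling. MT-ATP6, a subunit of ATP synthase, had 21823 to 27458 CPM in A60 cells and 17642 to 21676 in ERCC cells, and MT-ND3, a subunit of complex I, had 21678 to 27674 and 16746 to 20742, both without overlap. MT-CO1, the catalytic subunit of cytochrome c oxidase, had medians of 3818 and 3624 and a summed ratio of 1.03 (0.992 to 1.07). Pseudogenes named as copies of mitochondrial genes took 6.39% to 8.27% and 5.20% to 6.44%, close in sequence to the genes they copy, so that the division of UMIs between them is uncertain. Of the 76 nuclear genes of the respiratory chain SDHD alone passed, and the list had shares of 2.48% to 2.65% and 2.59% to 2.94%. Among 79 cytosolic ribosomal protein genes RPL41 alone passed.

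**Figure D2:**
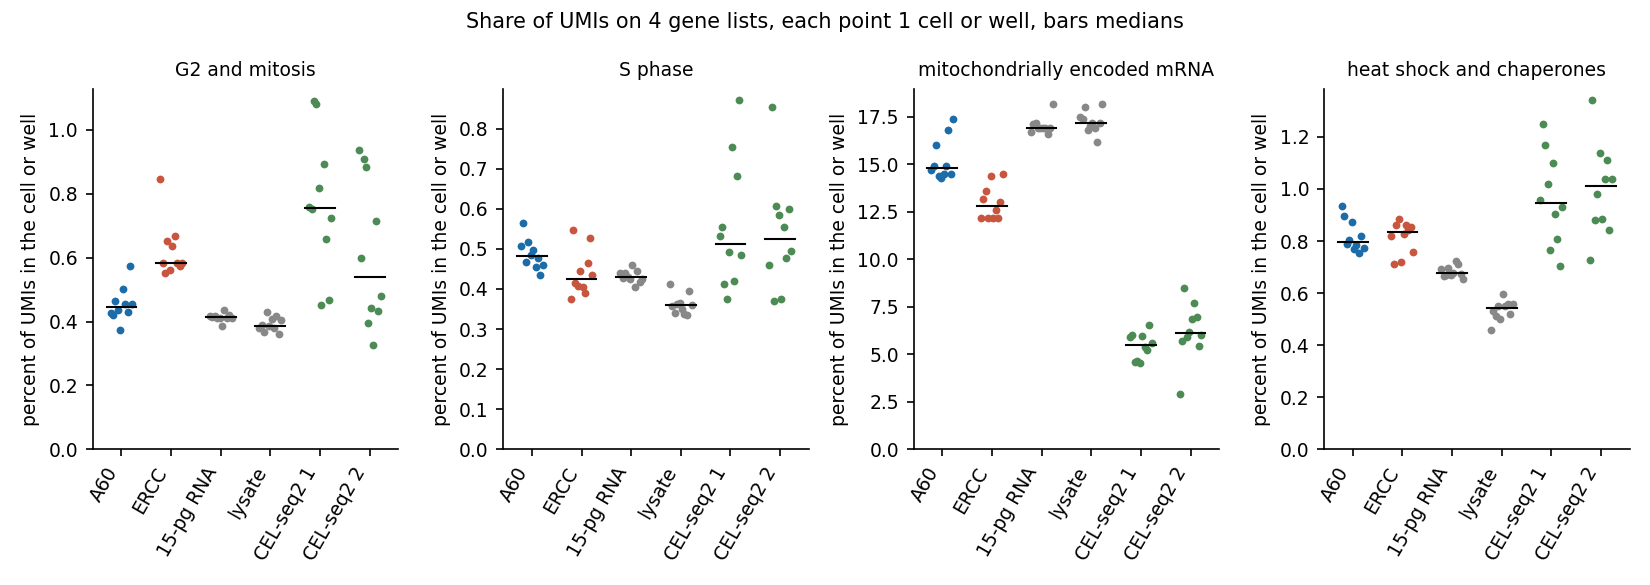
Percent of the UMIs of each cell or well on 4 gene lists, each panel with its own vertical axis from 0, for the 2 LAST-seq cell libraries (A60, ERCC), the 2 LAST-seq libraries of uniform wells (15-pg RNA, lysate) and the 2 CEL-seq2 cell libraries, points being cells or wells and bars medians. G2 and mitosis shares are mostly lower in A60 cells (median 0.446%) than in ERCC cells (0.583%), and mitochondrial mRNA shares are higher (14.8% beside 12.8%).

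Variation between the cells of a library was measured next, with the cell as the unit. For each of 3686 genes averaging 5 UMIs per cell or more in both libraries, the spread of UMIs over 10 cells was compared with counting error by the index of dispersion, given the total of each cell, at a Benjamini-Hochberg adjusted p of 0.05. The size is given as the excess squared CV, the squared coefficient of variation less the part that counting gives. In the A60 library 131 genes varied (3.55%), in the ERCC library 189 (5.13%) and in both 65 (1.76%), which is 49.6% of the first list and 34.4% of the second. Of the 65, 50 were among the 340 genes with at least 50 UMIs per cell in both libraries. The sizes agreed little over genes: the excess squared CV of the 2 libraries had a Pearson r of 0.12 and a Spearman rho of 0.04. When the 184 genes with the largest excess were taken from each library, 35 were shared (0.950% of all genes and 19% of each list).

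Compared on 998 genes with every well thinned to 62816 UMIs, 4.41% of genes varied in the A60 library and 4.11% in the ERCC library. Wells of uniform input gave 0.701% for 15-pg RNA and 1.5% for lysate. CEL-seq2 cells gave 48.3% and 57.9%. The median excess squared CV was 0.0051 and 0.0056 in the LAST-seq cells, 0.0033 in lysate, −0.00025 in 15-pg RNA and 0.060 and 0.088 in CEL-seq2 cells. By this measure LAST-seq cells lay much nearer to the uniform wells than to the CEL-seq2 cells, with no test between single libraries.

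**Figure D3:**
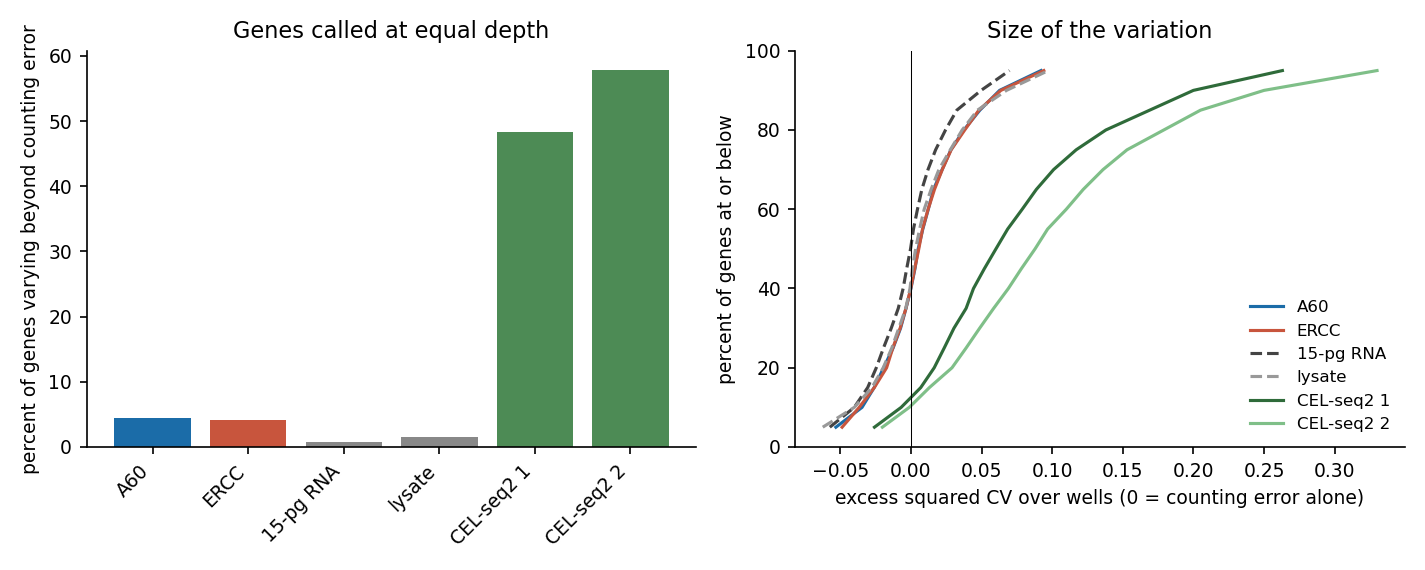
Left, percent of 998 genes called as varying beyond counting error over the 10 wells of each of 6 libraries thinned to equal depth; right, the cumulative percent of those genes (vertical) against excess squared CV (horizontal), where 0 is counting error alone. The A60 and ERCC bars stand at 4.41% and 4.11% beside 48.3% and 57.9% for CEL-seq2, and the A60 and ERCC curves run close to that of lysate.

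G2 and mitosis genes and S phase genes were called as varying about as often as all genes in the LAST-seq libraries. Of 37 G2 and mitosis genes tested, 1 varied in the A60 library and 3 in the ERCC library, with none in both. All genes gave 3.55% and 5.13%. By size the G2 and mitosis genes were larger, with a median excess squared CV of 0.016 and 0.021 beside 0.0049 and 0.0044 for all genes tested. In the CEL-seq2 libraries 34 of 37 and 33 of 36 varied, beside 60.6% and 60.2% of all genes there. Of 29 S phase genes, none varied in the A60 library and 2 in the ERCC library, and 24 and 22 of 29 did in CEL-seq2. The median excess squared CV of the S phase genes was 0.00093 in the A60 library and 0.013 in the ERCC library. CCNB1, the cyclin partner of CDK1, was the A60 member, at 3 to 24 UMIs per cell (index of dispersion, adjusted p = 0.035), and its adjusted p was 0.5 in the ERCC library. TOP2A varied in the ERCC library (adjusted p = 0.015), where cells 1, 6 and 7 had 42, 35 and 44 UMIs and the others 11 to 22. Of 7 genes of G1 cyclins and the RB-E2F pathway tested, 1 varied in the A60 library and 2 in the ERCC library. CDKN2A was the member that varied in both. E2F1, a transcription factor of the G1 to S transition, varied in the ERCC library at 5 to 27 UMIs (adjusted p = 0.0018).

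The share of a whole list sums many more UMIs than a single gene holds. The G2 and mitosis share had a CV over cells of 11.8% in the A60 library and 14% in the ERCC library, beside 2.96% in 15-pg RNA, 5.6% in lysate and 28.2% and 37.9% in CEL-seq2. The S phase share had CVs of 7.55% and 13%, beside 3.57% in 15-pg RNA, 6.84% in lysate and 29.1% and 26.1% in CEL-seq2. These CVs include counting error and are not at equal depth. Lysate wells held a median of 81709.5 UMIs, beside 142024 in A60 cells and 155214 in ERCC cells. The UMIs on the S phase list had an index of dispersion over cells of 4.65 in the A60 library and 11.5 in the ERCC library. For the G2 and mitosis list the index was 9.13 and 19.2. Over the 10 cells the S phase and G2 and mitosis shares had a Pearson r of −0.53 and −0.58, given as a description of cells that share a denominator. The highest G2 and mitosis share was that of cell 1 of the ERCC library, at 0.845%, whose S phase share of 0.376% was the lowest of the 20 cells.

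Few genes followed these scores in both libraries. Each score was the percent of UMIs on its list without the gene itself, and the rule was r above 0.5 in both libraries. By this rule 16 of 3686 genes followed the G2 and mitosis score (0.434%), among them CENPF, CKAP2 and BUB1 of the 37 members tested. ESPL1, the protease separase that releases sister chromatids, followed it from outside the list with r of 0.76 and 0.62, and ATP6V1A, a subunit of the vacuolar proton pump, with 0.73 and 0.66. The S phase score was followed by 11 genes (0.298%). SLBP, the histone mRNA binding protein, and CLSPN, the replication checkpoint adaptor claspin, were its members among them. Outside the list, MCFD2 had r of 0.85 and 0.68 and CDCA4 0.78 and 0.52. These are correlations over 10 cells of a library that share its depth range and are given without a test.

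Mitochondrial genes varied in both libraries. Of 13 mitochondrial mRNAs, 9 varied in the A60 library and 10 in the ERCC library, 9 of them in both, beside 6 in 15-pg RNA and 3 in lysate. These calls were made without thinning. The median depth was 142024 and 155214 UMIs in the cells, 112342 in 15-pg RNA and 81709.5 in lysate, and fewer UMIs allow fewer calls. Abundant genes were called more often in general, at 22.4% and 26.5% of all genes with at least 50 UMIs per cell in the library. The excess squared CV was small, with medians of 0.0055 and 0.0057 beside 0.0029 and 0.0021 in the uniform wells. All genes tested had medians of 0.0049 and 0.0044 in the cells. MT-ND1, a core subunit of complex I, was among the most variable, with 5542 to 8857 CPM in A60 cells (adjusted p = 2e-34) and 4543 to 7330 in ERCC cells (adjusted p = 5.6e-30). Its level by barcode in A60 cells had r of 0.96 with lysate and 0.83 with 15-pg RNA, as described below, so its spread is not that of cells alone. The mitochondrial mRNA share was lower in cells with more UMIs, with r of −0.71 in the A60 library and −0.91 in the ERCC library. The share of cytosolic ribosomal protein genes was higher in them, with r of 0.67 and 0.72, and both shares hold the total as denominator. The mitochondrial score was followed by 50 genes (1.36%), 5 of them members. Outside the list they included the copies MTATP6P1 and MTND1P23, but also GREM1, a BMP antagonist, CDKN2A, an inhibitor of CDK4 and CDK6, and the respiratory chain subunit COX7A2. ABCA8, RAB12, GDF5-AS1, LDB1 and EHBP1-AS1 followed too, and all of these had r of at least 0.74 in each library. The UMIs of LDB1 and EHBP1-AS1 did not rise with depth, as described below, so their CPM fell with the total as the mitochondrial share did. How far the other genes followed depth and not the score was not tested.

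Of 78 cytosolic ribosomal protein genes, which are abundant too, 24 varied in the A60 library and 28 in the ERCC library, 12 of them in both. In the uniform wells, again without thinning and at lower depth, 2 varied in 15-pg RNA and 3 in lysate. The counts in cells are read against the same 22.4% and 26.5% of abundant genes. Heat shock and chaperone genes varied in 1 and 4 of 28 cases, beside 3.55% and 5.13% of all genes. ATF4 targets varied in 0 and 5 of 22 cases and NRF2 targets in 0 and 2 of 14. Immediate early genes varied in 1 and 0 of 5 cases and cholesterol genes in 0 and 1 of 12. None of 13 unfolded protein response genes, 6 p53 targets and 3 hypoxia genes varied in either library. HSP90AA1, the inducible HSP90, varied in both libraries at 119 to 310 and 120 to 290 UMIs (adjusted p = 9.5e-08 and 0.0014). HSPA8 varied in the ERCC library at 229 to 661 CPM (adjusted p = 2.5e-10), and its adjusted p was 0.25 in the A60 library. JUN, a subunit of the AP-1 factor, varied in the A60 library, where cell 5 had 17 UMIs and the others 3 to 7 (adjusted p = 0.0063). IDI1, an enzyme of isoprenoid synthesis, varied in the ERCC library at 119 to 359 CPM (adjusted p = 1.9e-06). GCLC varied through the single ERCC cell with 75 UMIs (adjusted p = 7.8e-22). Each of these genes except HSP90AA1 varied in 1 library, and whether the libraries differ in it was not tested.

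None of the 15 genes with the largest excess in both libraries was on a cell cycle or stress list. ELAVL3, a neuronal RNA binding protein, had 1 to 21 UMIs in A60 cells and 1 to 16 in ERCC cells (adjusted p = 2.4e-08 and 0.01), with cell 1 of the A60 library highest. BCYRN1, a short cytoplasmic RNA of neurons that is derived from Alu repeats, had 0 to 30 and 1 to 28 UMIs (adjusted p = 3.8e-13 and 0.00044), and its reads may be shared with Alu copies. KCTD12, an auxiliary subunit of GABA-B receptors, stood at 612 CPM in cell 7 of the A60 library with the others at 167 to 315, and at 286 in cell 4 of the ERCC library with the others at 73 to 166. CHM, the Rab escort protein, had 26 UMIs in cell 4 of the A60 library and 15 in cell 2 of the ERCC library, with 3 to 9 and 2 to 9 in the others. ADAMTS1, a secreted protease, had 36 UMIs in cell 6 of the ERCC library and 5 to 19 in the others (adjusted p = 0.00034), and its adjusted p was 0.19 in the A60 library. HMGN2P46, WAC, VIRMA and B4GAT1 were also among the 15 genes with the largest excess, at adjusted p of 0.085 to 0.41 in both libraries, and so did not pass. SSB, the La protein, passed in the ERCC library alone, with 1 to 17 UMIs (adjusted p = 0.039).

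The barcode was then compared with the cell that stood out most in a gene. This was the cell furthest above its expected UMIs, given its total, in units of the square root of the expected UMIs. Of the 3686 genes, 414 had this cell at the same barcode in both libraries (11.2%), and of the 65 genes that varied in both libraries 15 did (23.1%). All 4 LAST-seq libraries share the 10 barcodes. Across them 9 of 1876 genes with at least 5 UMIs per well peaked at 1 barcode by this measure (0.480%), and 5 of 60 genes that varied in both cell libraries did (8.33%). These 5 were RPLP2, HMGN2, MT-ND4, MT-ATP6 and MTATP6P1.

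CSRP2, a LIM domain protein of smooth muscle and stellate cells, peaked at barcode 6 in all 4 libraries, at 142 CPM in the A60 library, 189 in the ERCC library, 191 in 15-pg RNA and 147 in lysate. The other wells had 15.7 to 88.7 in the A60 library and 16.5 to 56.8 in the ERCC library. Cell 6 held 22 and 34 UMIs of CSRP2. MT-ND1 had its highest values at barcodes 3 and 7 in all 4 libraries. They were 8857 and 7767 in the A60 library, 7330 and 6541 in the ERCC library, and 8286 and 7691 in lysate, where wells are taken to hold the same input. Over the 10 barcodes its level had r of 0.89 between the cell libraries and 0.96 between the A60 library and lysate. MTND4P35, another copy of MT-ND4, peaked at barcode 3 in both cell libraries, at 415 and 308, and in 15-pg RNA at 347, but lysate had 168 at barcode 3 and 183 at barcode 2. KCTD12 differed from these, with r of 0.20 between the cell libraries and −0.25 between the A60 library and lysate, and its peaks at barcodes 7 and 4. Its r between the A60 library and 15-pg RNA was 0.46, where barcode 7 was second highest at 134 CPM. So for CSRP2 and MT-ND1 the value of a cell moved with its barcode in wells of uniform input too. MT-ND4 had r of 0.59 between the cell libraries and 0.72 and 0.68 between them and 15-pg RNA, and CARF 0.61, 0.58 and 0.36, while DNMT3A had 0.21, 0.21 and 0.15.

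**Figure D4:**
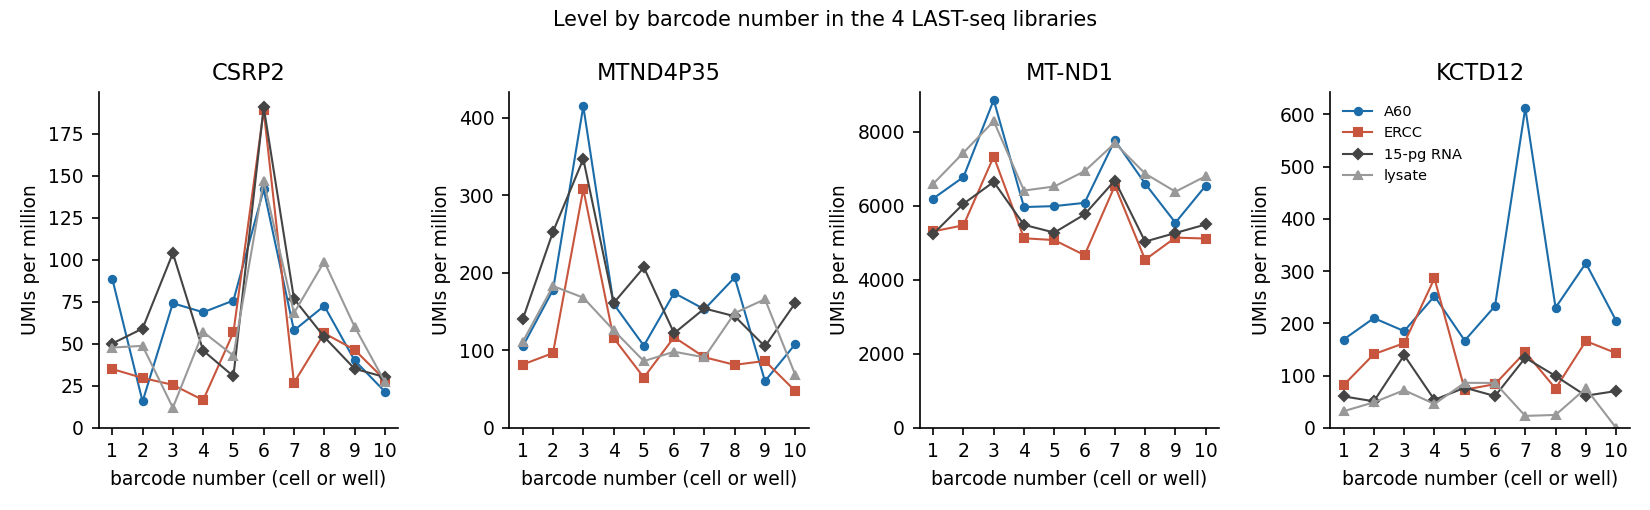
CPM, UMIs scaled to the total of the well (vertical, each panel from 0) of 4 genes at each of the 10 barcodes (horizontal) in the A60 and ERCC cell libraries and in the 15-pg RNA and lysate libraries. CSRP2 peaks at barcode 6 and MT-ND1 at barcodes 3 and 7 in all 4 libraries, whereas KCTD12 peaks at barcode 7 in A60 cells (612) and barcode 4 in ERCC cells (286).

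The UMIs of most genes followed the depth of the cell, and those of a few did not. The slope of ln UMIs on ln total UMIs over the 10 cells had a median of 1.09 in the A60 library and 1.10 in the ERCC library over the 340 genes with at least 50 UMIs per cell in both, where 1 means that a gene keeps its share. Spike-ins, added in the same amount to each well, had slopes of 0.32 and 0.19. The lysis buffer of each well also held carrier RNA, and whether the counts of any gene include it was not tested. Slopes under 0.3 in both libraries were found for 6 of the 340, namely DNMT3A, CARF, SH3KBP1, NDUFV3, LDB1 and EHBP1-AS1. All 6 were called as varying in both libraries, which at this abundance follows from a flat slope, since CPM divides by the total.

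CARF, a calcium-responsive transcription factor, had 58 to 135 UMIs per A60 cell and 60 to 131 per ERCC cell with slopes of −0.54 and −0.52. It had a median of 73 UMIs per well in 15-pg RNA, 0.5 in lysate and 0 in both CEL-seq2 libraries. SH3KBP1, an adaptor of receptor endocytosis, had 133 to 210 and 230 to 444 UMIs with slopes of −0.10 and −0.23. LDB1, the LIM domain binding cofactor, had 113 to 163 and 129 to 200 UMIs with slopes of −0.14 and −0.35. DNMT3A, a de novo DNA methyltransferase, had 44 to 70 and 43 to 97 UMIs with slopes of −0.30 and −0.46. NDUFV3, a subunit of complex I, had 33 to 73 and 41 to 78 with 0.19 and 0.30. EHBP1-AS1 is named as antisense to EHBP1, and had 47 to 72 and 39 to 78 UMIs with slopes of −0.15 and −0.62. Among genes that differed most between the libraries, the slope was −0.48 for SSBP2 in the A60 library and −0.14 for CCDC136 in the ERCC library. EOGT, MTND4P12, FRMPD1 and PLXNA4 had 0.10, 0.27, 0.44 and −0.15 in the A60 library, and FAM107A had 0.44 in the ERCC library. In the ERCC library MTND4P12, at 29 to 72 UMIs, had a slope of 1.07.

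**Figure D5:**
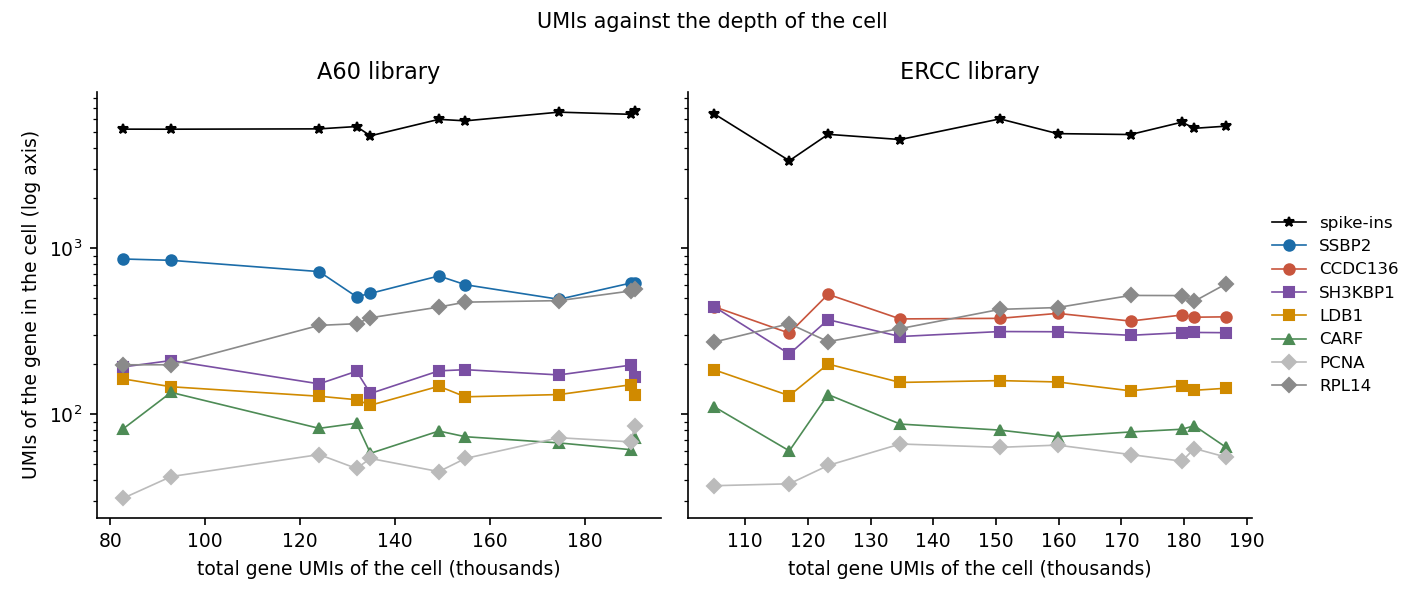
UMIs per cell of spike-ins and 7 genes (vertical, log axis) against the total gene UMIs of the cell (horizontal) in the A60 library, left, and the ERCC library, right, with lines joining the 10 cells in order of depth. RPL14 and PCNA rise with depth, while SSBP2, CCDC136, SH3KBP1, LDB1 and CARF stay level or fall, with slopes between −0.54 and −0.10, beside 0.32 and 0.19 for spike-ins.

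The spike-ins themselves marked the libraries as labelled. Of the A60 library's 57165 spike-in UMIs all but 42 lay on the 24 species of the A60 mix, and in the ERCC library 79.6% lay on other species. The 42 UMIs, 1 to 8 per cell, are 0.0735% of the spike-in UMIs of the A60 library.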

How the data were processed

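Single HEK293T cells were sequenced by LAST-seq in 2 libraries of 10 cells each. The authors converted the runs with bcl2fastq 2.20, trimmed the reads with cutadapt, aligned them to GRCh38 with the spike-in sequences in zUMIs, subsampled them to an equal depth, counted exon reads and collapsed UMIs by identity. The deposited values are UMI counts and read counts per gene and cell, without normalization.

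Spike-in rows were removed and UMIs scaled to the total of each cell. Cells were grouped by the mix named in the labels. Genes averaging 1 UMI or more over 20 cells were compared by the ratio of mean CPM with a pseudocount of 1, at 2-fold. Variation between cells was tested for genes with at least 5 UMIs in both libraries by the index of dispersion with 9 degrees of freedom and Benjamini-Hochberg adjustment. A score is the percent of the UMIs of a cell on a list, leaving out the gene itself. It was correlated over cells with log2 (CPM + 10) of each gene. Intervals are exact at the 95% level, and with PCR copies removed only by identity they cover counting error only. The 10 highest and 10 lowest ratios, the 15 genes with the largest excess in both libraries, list members past the rule and, per score, the closest genes outside its list were named. Other list members and BUB3 were named after their values were seen. The members and gene lists were chosen with earlier results of these data known. Positions are from the GENCODE annotation of GRCh38. Mitochondrial pseudogenes, depth slopes, the barcode comparison, equal-depth comparison of 6 libraries and leaving out each cell were added after seeing the data. Python 3.11.15, numpy 2.4.6, pandas 2.3.3 and scipy 1.17.1 were used, and edgeR 4.0.16 and DESeq2 1.42.0 gave the scaling factors of alternatives. Nothing says that the cells came from separate cultures, so spread between cells is that of these samples. How the counting used strand is not given in the sources used here, so antisense genes can hold reads of their partner. A few list members are not reported here.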

Additional observations from a re-analysis of the deposited data

Results flagged for a closer look

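Within each library, measures per cell were searched for a cell whose gap to the nearest other cell exceeded Dixon's critical share of their range. The 81 measures over both libraries were total UMIs, genes detected, reads per UMI, spike-in share, shares of lists and the named varying genes. Chance gives such a cell in about 1 of 20 measures. Such a cell was found for 15 (18.5%), of which the varying genes were chosen for their spread.

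Spike-ins took 5.79% of UMIs in cell 10 of the ERCC library and 2.74% to 3.83% in the others. The G2 and mitosis share was 0.845% in cell 1 of the ERCC library, above 0.551% to 0.669%. The share of ATF4 targets was 0.450% in cell 2 of the ERCC library, above 0.30% to 0.374%. Nuclear long noncoding RNAs took 0.193% in cell 8 of the A60 library, the cell with the fewest UMIs, beside 0.160% to 0.177%. HEK293T markers took 0.126% in cell 10 of the A60 library, below 0.148% to 0.173%.

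In CPM, ADAMTS1 stood at 200 in cell 6 of the ERCC library, BCYRN1 at 242 and ELAVL3 at 169 in cell 1 of the A60 library, and CSRP2 at 189 in cell 6 of the ERCC library. CHM stood at 149 in cell 4 of the A60 library and 111 in cell 2 of the ERCC library. KCTD12 stood at 612 in cell 7 of the A60 library and 286 in cell 4 of the ERCC library. MTND4P35 stood at 415 and 308 in cell 3 of the A60 and the ERCC library.

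Outside the comparisons of genes, 42 UMIs in the A60 library lay on spike-in species that are not in its mix, above the 3 UMIs that a count of 0 allows.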

How the results depend on the processing

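With 1 library per mix, no setting gives a test of the mix, and depth limits the comparison of genes with few UMIs. Genes higher and lower in the A60 library numbered 1017 and 1577 with sequencing reads, 373 and 659 with a pseudocount of 5, 69 and 171 at a mean of at least 5 UMIs, and 2276 and 2785 with no filter, beside 616 and 1032. G2 and mitosis genes lower in the A60 library numbered 13 to 18 when each cell was left out in turn, 13 without cell 1 of the ERCC library and 18 without cell 9 of the A60 library. With every cell thinned to the same number of UMIs, 76 genes varied in the A60 library, 90 in the ERCC library, and 16 of the most variable were shared. The shared number was 22 at a mean of at least 10 UMIs. Genes following the G2 and mitosis score numbered 31 without the cell with the fewest UMIs of each library. Those following the S phase score numbered 20 by Spearman's rho, 5 at a mean of at least 10 UMIs and 20 without the cell with the fewest UMIs. Those following the mitochondrial score numbered 28 by Spearman's rho. In 60 other cases these counts stayed within 1.5 times. Of 69 list medians under other scalings, 63 moved by less than the spread while TMM gave 0.10 for glycolysis and 0.11 for cytosolic ribosomal proteins beside −0.02 and −0.01. The cause of these moves was not tested beyond the fewer genes or UMIs that a filter or thinning leaves. No paired analysis was possible because the comparison of single libraries comes from no test, and cells that share a barcode are different cells.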

Other observations

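Among 18 nuclear long noncoding RNAs that passed the filter, 3 were 2-fold or more lower in the A60 library and none was higher. They were FTX, KCNQ1OT1 and SNHG29. This lies near the 17.8% of all long noncoding RNAs that were lower, beside 10.6% of all genes. The median log2 ratio was −0.16, beside −0.10 for all genes, and TMM scaling moved it to −0.07. FTX had 0 to 3 UMIs per A60 cell and 0 to 7 per ERCC cell, and KCNQ1OT1, transcribed antisense to KCNQ1 in an imprinted cluster, had 0 to 2 and 0 to 3, so both rest on few UMIs. Their medians were higher in the first CEL-seq2 library, at 17 and 48 UMIs per cell. None of 6 interferon-stimulated genes and none of 2 metallothioneins passed 2-fold, and their shares of UMIs overlapped, at 0.0153% to 0.0278% in A60 cells and 0.0143% to 0.0248% in ERCC cells for the interferon-stimulated list.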
